A study of Mus musculus with 2 samples.

Results

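The vitamin D receptor (VDR) peaks described here were called in fetal mouse left ventricle only when the mother's diet lacked vitamin D, and they lay away from the ends of genes. They numbered 19814, which is 52.9% (exact 95% binomial interval 52.4 to 53.4%) of the 37460 deficient-diet peaks on the autosomes and X, and they were drawn from 61117 peaks used in the series. A peak was included when no normal-diet peak lay within 1 kb of it, edge to edge, and when its summit lay over 1 kb from every end of an annotated gene span. Fixed 100-kb bins with 10 or more peaks of either diet were left out. The presence and absence of peaks in the lists therefore chose these regions, and their absence from the normal-diet list is not a finding. They are called distal deficient-only peaks below.

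The samples were left ventricles of E16.5 embryos (day of gestation), 1 library from embryos of mothers on a normal diet and 1 from embryos of mothers on a vitamin D deficient diet. In each, chromatin bound by VDR was immunoprecipitated and its DNA sequenced (ChIP-seq). Strain, sex, genotype and the number of mothers or embryos are not given in the sources used here. With 1 library per diet, diet and library cannot be told apart, there was no replicate check and no test, and all intervals cover counting error only. The ventricle holds several cell types, so occupancy in fewer cells and weaker occupancy per cell cannot be told apart, and peak lists offer no expression markers with which to check the tissue.

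VDR is a nuclear receptor that binds DNA with a partner of the retinoid X receptor (RXR) family, typically at paired hexamers of the AGGTCA kind. It acts largely from introns and from DNA between genes as well as from promoters, and in the kidney and gut its best known targets govern calcium transport and breakdown of the hormone. In the heart it is present in muscle cells and fibroblasts and is studied for effects on growth and calcium handling.

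Sequence was at hand only for RefSeq promoter windows, which run from 250 bases before to 50 bases after an annotated transcript start (build GRCm38.p6, the same coordinates as mm10). Because many genes have starts inside their span, distal deficient-only peaks overlapped 108 such windows, at 100 genes. The stretches inside the called peak are shown for the 5 genes of the pathway lists described below and for the 3 strongest other peaks with their summit inside a window, to show DNA within these peaks. For Wnt9b, Bmpr1b and Nebl the summit lay outside the window, so the stretch holds only a flank of the peak, 20 bases long in Nebl. Each reads 5′ to 3′ on the gene's strand, and capitals mark any of 4 receptor hexamers on either strand, which are AGGTCA, the variant AGTTCA, the variant GGGTCA and the variant GGTTCA.
Rxrg, chr1:167618160-167618314, plus strand: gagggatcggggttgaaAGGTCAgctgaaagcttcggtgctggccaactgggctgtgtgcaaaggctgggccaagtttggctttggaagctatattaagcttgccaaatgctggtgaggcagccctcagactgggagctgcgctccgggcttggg
Rarb, chr14:16575643-16575726, minus strand: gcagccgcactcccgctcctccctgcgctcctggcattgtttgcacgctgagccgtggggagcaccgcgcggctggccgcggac
Wnt9b, chr11:103749772-103749986, minus strand: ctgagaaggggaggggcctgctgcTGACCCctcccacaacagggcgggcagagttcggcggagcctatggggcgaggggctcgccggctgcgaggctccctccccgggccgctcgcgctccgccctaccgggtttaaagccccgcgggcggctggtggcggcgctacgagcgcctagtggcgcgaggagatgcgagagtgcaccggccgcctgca
Bmpr1b, chr3:141982215-141982309, minus strand: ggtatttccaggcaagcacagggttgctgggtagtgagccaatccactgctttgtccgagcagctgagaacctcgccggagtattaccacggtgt
Nebl, chr2:17731365-17731384, minus strand: ggctccctttgtcgctgacg
Pcx, chr19:4594257-4594368, plus strand: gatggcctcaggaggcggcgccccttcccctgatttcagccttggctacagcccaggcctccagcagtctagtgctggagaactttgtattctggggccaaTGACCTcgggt
Spdya, chr17:71551811-71551963, plus strand: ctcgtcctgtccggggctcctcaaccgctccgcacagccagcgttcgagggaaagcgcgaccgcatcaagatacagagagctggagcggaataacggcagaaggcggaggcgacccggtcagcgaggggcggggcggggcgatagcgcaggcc
Mpp4, chr1:59161587-59161764, minus strand: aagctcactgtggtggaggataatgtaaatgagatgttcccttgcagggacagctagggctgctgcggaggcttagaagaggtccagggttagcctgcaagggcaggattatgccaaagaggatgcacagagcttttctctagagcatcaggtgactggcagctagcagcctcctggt

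The peak at the internal start of Rxrg, which encodes an RXR, the binding partner of VDR, had its summit 2 bases upstream of that start. It rested on 21 fragments over a background of 7.76, a -log10 q of 2.39, and a normal-diet peak lay 2274 bp away. A single AGGTCA lay in the printed stretch. The Rarb peak, at an internal start of the gene for retinoic acid receptor beta, had 22 fragments over 5.82, with no hexamer in the printed stretch and 3 in the whole window. The Wnt9b peak (a Wnt ligand, 22 fragments over 5.38) and the Pcx peak (pyruvate carboxylase, 27 over 5.38) held 1 hexamer each. The stretches of Bmpr1b, a receptor for bone morphogenetic proteins, of Nebl, a Z-disc protein of heart muscle, and of Spdya and Mpp4 held none.

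Across all 108 windows touched by distal deficient-only peaks, 38 held at least 1 of the 4 hexamers on either strand, 35.2% (26.2 to 45.0%). The share was 46.0% (44.5 to 47.4%) among all 4727 windows whose start lay over 1 kb from every gene end, and 43.8% among all 32619 windows. The touched windows were richer in G and C, with a median of 60.0% against 51.7% in the internal windows. Windows touched by the distal deficient-diet peaks that overlapped a normal-diet peak had a hexamer share of 37.5% (25.7 to 50.5%) and a median of 61.7% G and C. Windows touched by distal peaks of the normal diet only had a median of 61.7% and a hexamer share of 43.6% (33.7 to 53.8%). The pair of same-strand hexamers 3 bases apart, the classical VDR element, was found in 0 of the 108 windows, which allows a share of up to 2.78%, and in 0.0399% of all windows. These matches describe letters in a window and not sites in use.

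Summit heights were low and narrowly spread. The summit pileup, the number of fragments over the summit, had a median of 22 (10th to 90th percentile 19 to 26) and a highest value of 161. The median fold enrichment in the authors' files was 3.45 and the median -log10 q, the authors' adjusted significance of a peak, was 3.95. The recovered background was no higher than the genome-wide 5.38 fragments in 59.4% of the peaks, and was over 2 times that in 0.757%. The median width was 204 bp, and 11.6% of the peaks had 162 bp, the narrowest width in the list. Only 61 peaks, 0.308% (0.236 to 0.395%), reached a -log10 q of 10.

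Distal deficient-diet peaks that overlapped a normal-diet peak, of which there were 5525, stood slightly higher. A wider peak overlaps another more readily, so the rule itself bears on the widths. Their median pileup was 23, their median -log10 q 4.36 and their median width 263 bp, and 2.84% (2.42 to 3.31%) reached a -log10 q of 10. Among all distal deficient-diet peaks outside crowded bins, the deficient-only share was 73.2%, and it declined with peak strength. It was 79.0% (77.6 to 80.3%) at a -log10 q of 2 to 3, 67.6% (66.3 to 68.9%) at 5 to 7 and 27.2% (21.5 to 33.6%) at 10 or more. For all deficient-diet peaks, near gene ends or not, 71.3% had no normal-diet peak within 1 kb.

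The libraries differed in genome-wide background, as recovered from the peak values, and read numbers were not used. The part of sequencing depth in the absence of these peaks from the normal-diet list was not tested. The genome-wide background was 5.38 fragments in the deficient-diet and 2.65 in the normal-diet library, a ratio of 2.03. Normal-diet peaks at their genome-wide background began at 11 fragments, a ratio of pileup to background of 4.15, whereas deficient-diet peaks began at 16 fragments and a ratio of 2.97. Of the distal deficient-only peaks, 14410, or 72.7% (72.1 to 73.3%), had a ratio under 4.15. That lowest ratio applies at the genome-wide background, where 7562 of 11761 deficient-only peaks, 64.3% (63.4 to 65.2%), were under it. By construction, no normal-diet peak at its own genome-wide background lay under 4.15, which is the lowest ratio among them. On raised background the normal-diet list reached lower ratios, down to 1.67 among its normal-only distal peaks. The other 5404 peaks, 27.3% (26.7 to 27.9%), had a ratio at or above it. Among the distal deficient-diet peaks that overlapped a normal-diet peak, 37.1% (35.8 to 38.4%) reached that ratio and 62.9% did not. At the genome-wide background, 50.4% (48.6 to 52.2%) of these overlapping peaks were under it.

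**Figure D1:**
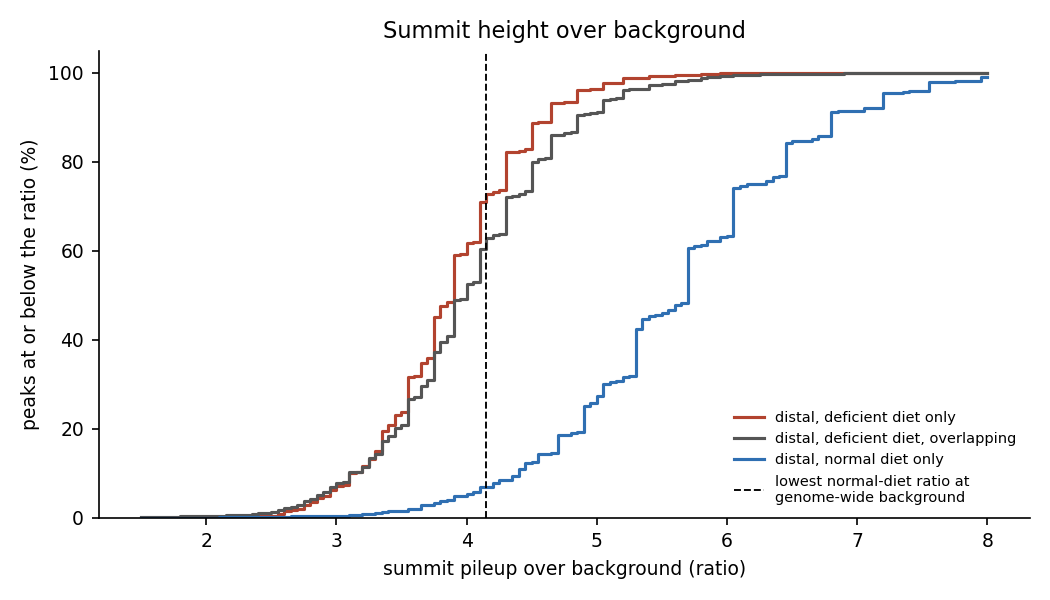
Cumulative share (%) of distal peaks at or below each ratio of summit pileup to background, for deficient-only peaks, deficient-diet peaks overlapping a normal-diet peak, and normal-only peaks. The dashed line marks the lowest normal-diet ratio at genome-wide background, 4.15, under which 72.7% of the distal deficient-only peaks lie.

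Most distal deficient-only peaks lay inside genes. Their summits fell inside a gene span in 11696 cases, 59.0% (58.3 to 59.7%), and inside a protein-coding span in 52.3%, while gene spans make up 47.1% of the 2378 Mb where such a peak could lie. The density was 10.4 per Mb inside spans and 6.45 per Mb outside. Distal deficient-diet peaks that overlapped a normal-diet peak lay inside spans less often, at 49.7% (48.4 to 51.0%), and these intervals do not overlap. Distal peaks of the normal diet only, chosen by the same rule, had 60.2% (59.2 to 61.2%) inside spans, at 4.95 per Mb inside and 2.91 outside. Outside spans, the median distance of a deficient-only summit to the nearest gene end was 16010 bp, against 23152 bp for the overlapping class, and 725 summits lay outside spans and over 100 kb from every gene end.

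Along genes, distal deficient-only peaks were denser toward the 3′ end. In protein-coding spans of 20 kb or more, with the 1 kb at gene ends and the crowded bins taken out of the length, the 20% of the span nearest the 5′ end held 8.11 peaks per Mb (exact Poisson interval 7.63 to 8.61). The following steps of 20% held 8.20, 8.90 and 10.1 per Mb, and the 20% nearest the 3′ end held 13.4 per Mb (12.8 to 14.1), which is 1.66 times the value at the 5′ end. The ratio was 1.61 among peaks with a -log10 q of 5 or more and 1.64 among those with a pileup ratio of 4.15 or more. Normal-only distal peaks gave 1.57 and the overlapping class 1.41, so the slope was not confined to the deficient-only peaks. Outside spans, at 1 to 5 kb from the nearest protein-coding gene, 43.8% (39.8 to 47.7%) of the deficient-only peaks lay on the 5′ side of that gene, and at 5 to 20 kb 51.4% (48.8 to 54.0%) did. Strand came from the promoter table, so chromosome 18 is not in these counts.

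**Figure D2:**
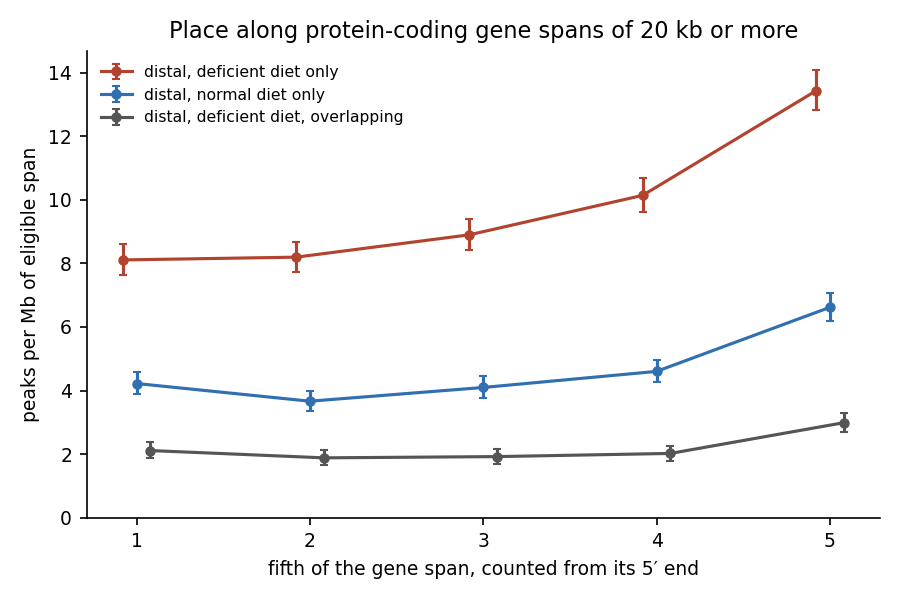
Distal peaks per Mb in steps of 20% along protein-coding gene spans of 20 kb or more, from the 5′ end (1) to the 3′ end (5), with exact 95% Poisson intervals as bars. Deficient-only peaks rise from 8.11 to 13.4 per Mb, and the other classes are also highest at the 3′ end.

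Some distal deficient-only peaks lay at annotated starts inside gene spans. The share of eligible DNA within 1 kb of such a start was not measured. The shares below therefore do not show whether starts held few or many peaks. They are of all peaks of a class, with chromosome 18, where promoter windows were not used. A summit within 1 kb of a RefSeq start was found for 329 distal deficient-only peaks, 1.66% (1.49 to 1.85%), against 2.59% (2.19 to 3.04%) of the overlapping class and 2.53% (2.22 to 2.87%) of the normal-only class.

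Chromosomes differed in density, and the intervals of the highest and lowest, which treat peaks as independent, did not overlap. Over the 2569 Mb between the first and last called bases there were 7.71 distal deficient-only peaks per Mb. This length includes gene ends and crowded bins, where none could lie. Chromosome 11, rich in genes, had the highest density with 11.3 per Mb (10.7 to 11.9), followed by chromosome 7 with 10.3 and chromosome 5 with 9.95. Chromosome 3 was the lowest autosome at 5.42 (5.06 to 5.80), and X held 3.22 per Mb (2.96 to 3.50). The normal-only class was also lowest on X, at 1.03 per Mb, and X had the largest number of deficient-only per normal-only peak, 3.12, where all chromosomes together had 2.15. By contrast, the share of distal deficient-diet peaks on X that were deficient-only was the lowest of any chromosome, 65.8% (62.4 to 69.0%) against 73.2% in all. The sex of the tissue, which sets the number of X copies, is not given, and its part in the X values was not tested. Along chromosomes, counts of deficient-only and normal-only distal peaks in 2579 bins of 1 Mb had a Pearson correlation of 0.75 and a Spearman correlation of 0.60, given as a description, since both counts share the bins' gene density. Across the same bins, the correlation of deficient-only counts with the number of protein-coding genes in a bin was 0.50 (Pearson) and 0.56 (Spearman).

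**Figure D3:**
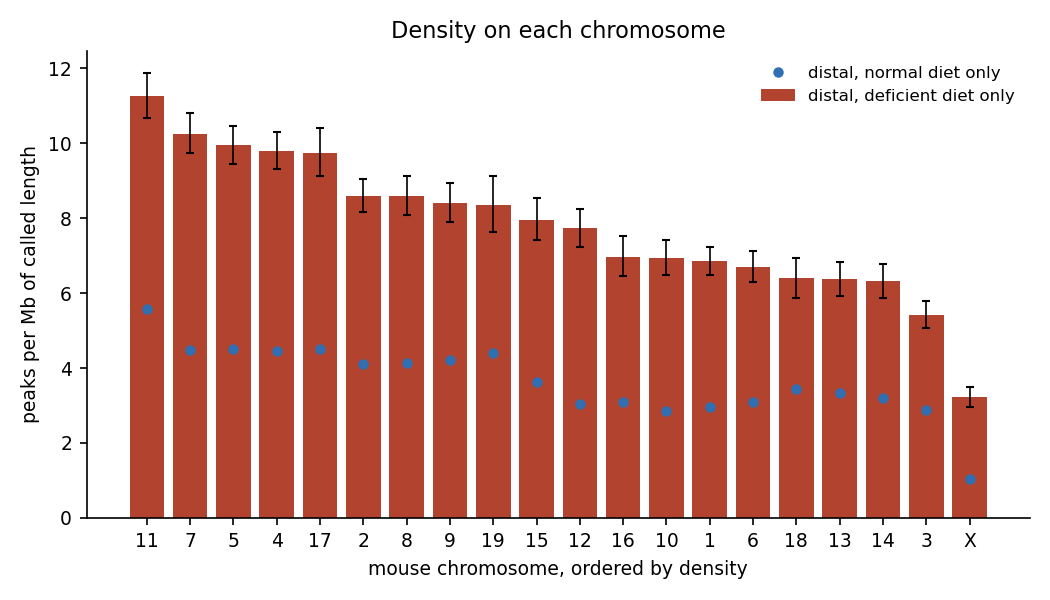
Distal deficient-only peaks per Mb of called length on each mouse chromosome (bars, with exact 95% Poisson intervals) and distal normal-only peaks (points). Chromosome 11 is highest at 11.3 and X lowest at 3.22 per Mb.

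Spacing was wide, and leaving out crowded bins contributes to that by construction. Neighbouring summits on a chromosome lay a median of 55274 bp apart, and 5.85% (5.53 to 6.19%) had another of the class within 1 kb. Of the 100-kb bins that held any, 6578 held 1 and 7 held 9. The nearest normal-diet peak lay a median of 28334 bp away, within 10 kb for 25.1% and within 50 kb for 65.4%. At the 1-kb limit itself, the nearest included peak, on chromosome 5 from 135035548 to 135035796, lay just past it and had a pileup of 19, and a peak left out on chromosome 9 from 26101803 to 26101996 lay 999 bp away with a pileup of 22. At the gene-end limit, the 3 nearest included summits had pileups of 20, and an excluded one at 1000 bp had 23. Bins with 9 peaks in the fuller list contributed 788 peaks with a median pileup of 22, and bins with 10, which were left out, held 596 with the same median.

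Of the 6 strongest regions inside gene spans, 3 lay in pseudogenes. The highest was on chromosome 19 from 39259798 to 39260091 in Cyp2c53-ps, a transcribed pseudogene of the cytochrome P450 family, with 102 fragments over a background of 32.0 and a -log10 q of 17.3. The next lay on chromosome 17 from 3077820 to 3078012 in Pisd-ps2, with 90 fragments over 27.2, and on chromosome 13 from 13339976 to 13340154 in Gm18562, with 39 over 6.13. Backgrounds at the first pair were 5.95 and 5.05 times the genome-wide value, and reads in near-identical copies are uncertain in their placement. In protein-coding genes the strongest were on chromosome 11 from 50135714 to 50135965 in Tbc1d9b, a gene for a Rab GTPase-activating protein, with 35 fragments over 5.38 and a -log10 q of 12.5, and on chromosome 14 from 123810650 to 123810844 in Itgbl1, which encodes an integrin beta-like secreted protein, with 36 over 5.97. One in the long non-coding RNA gene Gm32762, on chromosome 14 from 41425740 to 41426001, had 36 over 5.82.

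Outside gene spans, the strongest lay on chromosome 7 from 130834460 to 130834621, 8623 bp beyond the 3′ end of Btbd16, with 66 fragments over 14.6 and a -log10 q of 17.5. A region on chromosome 1 from 154022135 to 154022350 had 41 fragments over 5.97, the highest ratio of all distal deficient-only peaks, 6.86, and its nearest protein-coding gene was Glul, glutamine synthetase, 112519 bp away. The others were on chromosome 17 from 46346284 to 46346508 (51 over 9.70, near the transporter gene Abcc10), chromosome 6 from 24928286 to 24928497 (36 over 5.38, near Tmem229a), chromosome 12 from 84729652 to 84729901 (36 over 5.50, near the cholesterol transport gene Npc2) and chromosome 16 from 3123192 to 3123361 (78 over 24.3). The chromosome 6 region had the largest pileup of any at the genome-wide background outside chromosome 18, and the third largest was on chromosome 2 from 4848325 to 4848569, with 34 fragments. These heights stand against the median of 22 for the class.

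Genes with many distal deficient-only peaks were long genes. Of 21631 protein-coding genes, 5570, or 25.8%, held at least 1 in their span, 1088 (5.03%) held 3 or more and 34 held 10 or more. The median span was 46.9 kb for genes with one and 11.9 kb for genes without. Density ran the other way: it was 16.47 per Mb in spans of 10 to 50 kb, 9.73 in spans of 100 to 200 kb and 5.62 in spans over 200 kb, and normal-only peaks fell alike, from 7.72 to 5.03 and 2.63.

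The 15 genes with the most peaks were led by Camta1, a calmodulin-binding transcription factor, with 27 deficient-only peaks in 802 kb, and Rbfox3, a neuronal splicing regulator, with 20 in 422 kb. The sorting receptor gene Sorcs2 and the cadherin gene Cdh23 held 19 each. Next came Shank2 (a postsynaptic scaffold, 17), the adhesion genes Sdk2 and Cdh4 (16 each) and Prdm16, a transcription factor needed in the developing ventricle, with 15. Slit1, an axon guidance ligand, and the transcription factor Zfhx3 held 14 each, Lingo1, Grid1, Asic2 and Cntnap2 held 13 each, and Cux2 held 12. Per Mb of span, Slit1 was the densest with 93.7 and Cntnap2, spanning 2241 kb, the thinnest with 5.80. Pileups in these genes were ordinary: in Camta1 they ran from 18 to 27 with a median of 21, and 7 of its 27 peaks reached the ratio of 4.15.

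All 15 also held normal-only distal peaks. Camta1 held 15 normal-only distal peaks, Prdm16 11, Rbfox3 9 and Cdh23 8. Sdk2 and Asic2 held 2 each and Shank2 held 3. Over all genes, 3430 (15.9%) held a normal-only distal peak, and 2002 held both kinds, which is 35.9% of the genes with a deficient-only and 58.4% of those with a normal-only peak. No normal-diet peak of any kind lay in the span of 2403 genes with a deficient-only peak, 43.1% of all genes with one. Of these, 30 held 5 or more deficient-only peaks, where 332 genes in all held that many. Among the 30 were Hdac4, a histone deacetylase studied in heart growth, with 6, and the semaphorin co-receptor gene Nrp2 with 7. The corepressor gene Ctbp2 held 7 and Adcy9, an adenylyl cyclase, 5 (4 genes picked from the 30 after their values were seen).

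**Figure D4:**
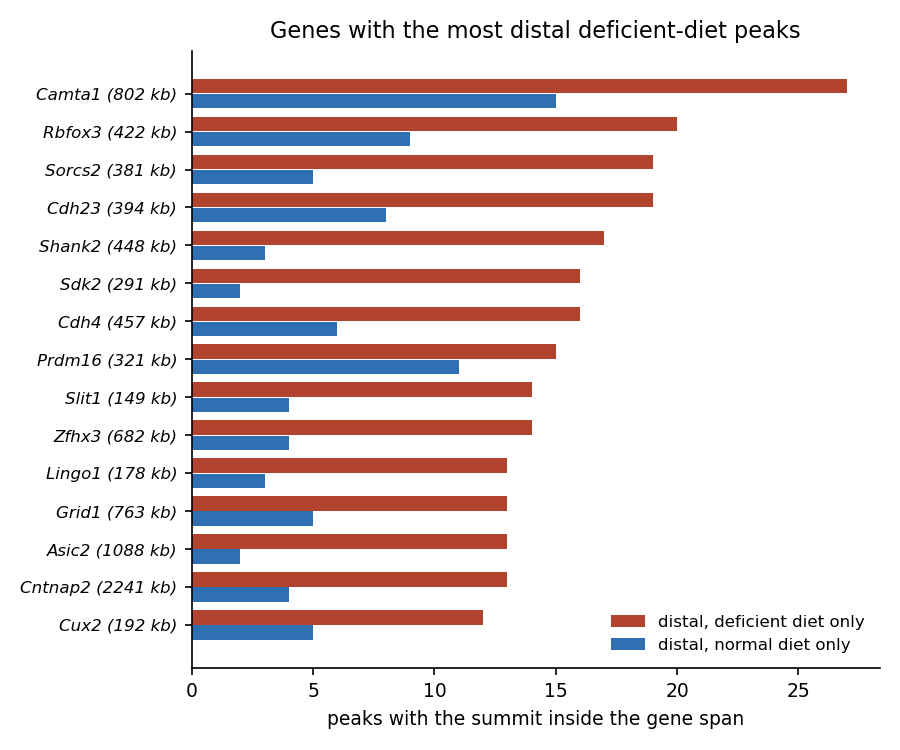
Distal deficient-only (red) and normal-only (blue) peaks with the summit inside each of the 15 protein-coding genes that hold the most deficient-only peaks, with the span of each gene in kb. Deficient-only counts run from 12 in Cux2 to 27 in Camta1, and each of the 15 genes also holds normal-only peaks.

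Gene lists covering the vitamin D pathway, the heart and its cell types were described by 2 measures, the share of genes with a distal deficient-only peak in the span (25.8% of all protein-coding genes) and the density per Mb of span (10.1 of all). Both depend on gene length, so the number of peaks was also set against the number that genes of the same span class would hold at the density of all genes in that class. A gene may be in more than 1 list, as Prdm16, Lrp5 and Slc8a1 are. Ratios were also computed, by a choice made after seeing the data, without the gene with most peaks in each list, which tends to lower a ratio by construction. The intervals treat the peaks of 1 library as independent. Of all distal deficient-only peaks, 30.2% had another within 10 kb, so the intervals may be too narrow. Whether an interval includes 1 is a description and not a test.

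In the vitamin D pathway, 4 of 13 genes held one, at 12.6 per Mb (5.76 to 23.9). Their 9 peaks were 1.17 times (0.535 to 2.22) the number at the density of their span class, and 0.450 times (0.0929 to 1.32) without Rxra. Rxra, the main RXR of the heart, held 6, with pileups from 20 to 29, together with 3 normal-only and 2 overlapping distal peaks. The strongest, on chromosome 2 from 27752352 to 27752651, had 29 fragments over 5.38, a -log10 q of 8.23 and a normal-diet peak 1063 bp away, just past the limit. Rxrg held the peak shown above. Lrp2 (megalin) and Cubn (cubilin), receptors that take up the vitamin D binding protein, held 1 each, with 22 and 28 fragments over 6.79. Vdr itself held none and 3 normal-only distal peaks, and Cyp24a1, Cyp27b1 and Cyp2r1, the enzymes that break down and make the hormone, held none. Among 20 vitamin D target genes 5 held one, and Lrp5, a Wnt co-receptor, had the most with 6 (pileups 18 to 23), beside 3 normal-only peaks. The 13 peaks of the target genes were 1.67 times (0.889 to 2.86) the number at the density of their span class, and 1.03 times (0.414 to 2.12) without Lrp5. Slc8a1, the sodium-calcium exchanger of heart muscle, and Igfbp3, an insulin-like growth factor binding protein, held 2 each.

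Among the 36 heart transcription factors, 14 held one (38.9%, 23.1 to 56.5%) and 15 held a normal-only peak. The list had 11.4 deficient-only peaks per Mb (7.95 to 15.9), against 10.1 for all genes. Normal-only peaks lay at 10.4 per Mb (7.14 to 14.7), against 4.80 for all genes. The 35 deficient-only peaks were 1.39 times (0.968 to 1.93) the number at the density of their span class, and 0.855 times (0.522 to 1.32) without Prdm16. Prdm16 accounted for 15 of the 35 and Tead1, the partner of YAP in heart growth, for 5, with pileups from 22 to 24. Tbx5, Irx4 and Mef2d held 2 each, Gata4, Gata6, Hand2 and Tbx3 held 1 each, and Nkx2-5, Tbx20, Mef2c and Hand1 held none. Outside gene spans the order was different: 22 of the 36 genes (61.1%) were the nearest protein-coding gene to 58 deficient-only peaks, where 20.3% of all genes were nearest to one. These genes have wide surroundings, and per Mb of that territory the list had 6.82 peaks (5.18 to 8.82) against 6.45 for all genes. Tbx3 had 8 such peaks, and Tbx5, Hand2 and Irx3 5 each.

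The contractile genes were close to all genes in both measures. Of 44 sarcomere and Z-disc genes, 14 held one (31.8%, 18.6 to 47.6%), at 9.07 per Mb (5.75 to 13.6). Ldb3, a Z-disc scaffold, held 4 with pileups from 21 to 23, and Myom3 of the M-band and Tmod1, which caps thin filaments, held 3 each. Ttn, Myh6, Myh7 and Actn2 held none. Calcium handling and ion channel genes are longer, and 25 of 38 held one (65.8%, 48.6 to 80.4%), at 9.61 per Mb (7.54 to 12.1). Their 74 peaks were 1.45 times (1.14 to 1.83) the number at the density of their span class, and without Cacna1d 1.34 times (1.04 to 1.71). The list also held 37 normal-only peaks, at 4.80 per Mb as over all genes. They lay in 20 of the 38 genes (52.6%), where 15.9% of all genes held one. Cacna1d, an L-type calcium channel, held 9, Kcnq1, the channel of the slow repolarizing current, 8, and the inositol trisphosphate receptor gene Itpr2 6. Kcnq1 peaks ran from 16 fragments, the lowest pileup of the class, to 26. Ryr2, the calcium release channel, held 3. It was 1 of 4 genes, of the 25 in this list with a deficient-only peak, with no normal-diet peak in the span. Over all protein-coding genes with a deficient-only peak, that share was 43.1%.

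The Wnt pathway had the densest set. Its ligands, receptors and effectors held 55 peaks in 29 of 46 genes (63.0%, 47.5 to 76.8%), at 18.4 per Mb (13.9 to 24.0), or 1.68 times (1.27 to 2.19) the number at the density of their span class, and 1.54 times (1.14 to 2.04) without Lrp5. The ligand Wnt3 held 5 and Wnt5b 4, the co-receptor Lrp5 6 and the nuclear effectors Tcf7 and Tcf7l2 4 each. In Wnt3 the pileups were 21, 22, 22, 23 and 25, and it held 1 normal-only peak. Wnt5b held 4 of each kind. Ctnnb1, the central effector, and the co-receptor Lrp6 held none. Normal-only peaks were also denser in this list than over all genes, at 9.38 per Mb (6.23 to 13.6) against 4.80.

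TGF-beta and BMP genes had a density whose interval includes that of all genes, with 14 of 43 (32.6%, 19.1 to 48.5%) and 9.52 per Mb (6.42 to 13.6). Ski, a repressor of this signalling, held 5, the signal transducer Smad3 4, and Smad9 and the co-receptor Tgfbr3 3 each. Of 26 Notch genes 11 held one, at 9.14 per Mb (5.22 to 14.8). The receptor gene Notch1 held 3, one of them with 33 fragments over 6.79 and a -log10 q of 8.50, on chromosome 2 from 26473911 to 26474178.

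Among the other nuclear receptors, 20 of 43 held one (46.5%, 31.2 to 62.3%), at 9.81 per Mb (7.33 to 12.9). A normal-only peak lay in 12 of them (27.9%), at 3.59 per Mb, where all genes had shares of 25.8% and 15.9%. The deficient-only peaks were 1.24 times (0.923 to 1.62) the number at the density of their span class, an interval that includes 1. Rora held 6, the retinoic acid receptor Rara and the estrogen-related receptor Esrrb 5 each, and Nr5a1, a regulator of steroid-producing tissue, 4 in 21.9 kb. In the renin-angiotensin and natriuretic peptide genes 5 of 17 held one. Agtr1a, the angiotensin receptor, held 2 and Nppc, C-type natriuretic peptide, held 1, and Nppa and Nppb held none.

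Polycomb genes, remodelers and histone enzymes held 60 peaks in 19 of 46 genes (41.3%, 27.0 to 56.8%), 1.47 times (1.12 to 1.89) the number at the density of their span class. Prdm16 supplied 15 of these, and without it the ratio was 1.16 (0.843 to 1.55), an interval that includes 1. The remodeler subunit gene Arid1b held 10, Hdac4 6 and the remodeler gene Chd7 4. Hdac4 had pileups from 19 to 25 and Chd7 from 21 to 24. Neither held a normal-only peak, though Chd7 held 2 distal peaks that overlapped a normal-diet peak. Over the whole list, normal-only peaks lay at 6.88 per Mb (4.67 to 9.77), against 4.80 over all genes. Cohesin, CTCF and lamina genes held 8 peaks in 6 of 29 genes (20.7%, 7.99 to 39.7%), at 4.69 per Mb (2.02 to 9.24). This is 0.398 times (0.172 to 0.783) the number at the density of their class, and 0.254 times (0.0826 to 0.594) without Lmna. Their most covered gene, Lmna, which encodes lamins A and C, held 3, with 21, 22 and 23 fragments. Normal-only peaks were also sparse there, at 2.34 per Mb.

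Energy metabolism genes held 32 peaks in 16 of 35 genes, at 17.0 per Mb (11.6 to 24.0), or 1.60 times (1.10 to 2.26) the number at the density of their class, and 1.38 times (0.900 to 2.02) without Hk1. Hk1, a hexokinase, held 6, and Cd36, the fatty acid carrier, the transcription factors Mlxipl and Nrf1 held 3 each. Of the 16 list genes with a deficient-only peak, 8 had no normal-diet peak in the span, Cd36 and Nrf1 among them. Over all protein-coding genes with a deficient-only peak, that share was 43.1%. Hk1 and Mlxipl held 1 normal-only peak each. Normal-only peaks were also denser in this list than over all genes, at 9.04 per Mb (5.27 to 14.5) against 4.80. Of 35 cell cycle genes 8 held one (22.9%, 10.4 to 40.1%), Aurka and Ccnd2 with 2 each.

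Marker genes of other cell types were listed too, though a peak in a marker gene does not show which cells it came from. Endothelial and endocardial markers held 26 peaks in 10 of 22 genes (45.5%, 24.4 to 67.8%), at 16.52 per Mb (10.8 to 24.2), and 4 genes held a normal-only peak. The adhesion gene Pecam1 held 5 and the transcription factors Erg and Nfatc1 and the clotting gene Vwf 4 each. Nfatc1 held 5 normal-only peaks and Vwf 1, while Pecam1 and Erg held none but had 1 normal-diet peak each in the span. The list's 26 peaks were 1.59 times (1.04 to 2.33) the number at the density of their span class. Without Pecam1 the ratio was 1.34 (0.830 to 2.05), an interval that includes 1. Fibroblast, epicardial and smooth muscle markers had 4 of 22 genes with one, led by Myh11 with 3, and blood cell markers 4 of 16, led by Runx1 with 4. Neuronal markers had the largest share, 16 of 22 genes (72.7%), with a median span of 444 kb, but a density of only 4.37 per Mb (3.41 to 5.52). They held 0.753 times (0.587 to 0.951) the number at the density of their class, and 0.552 times (0.410 to 0.727) without Rbfox3. Rbfox3 held 20, Cntnap2 13 and Csmd1 and Lrp1b 8 each.

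**Figure D5:**
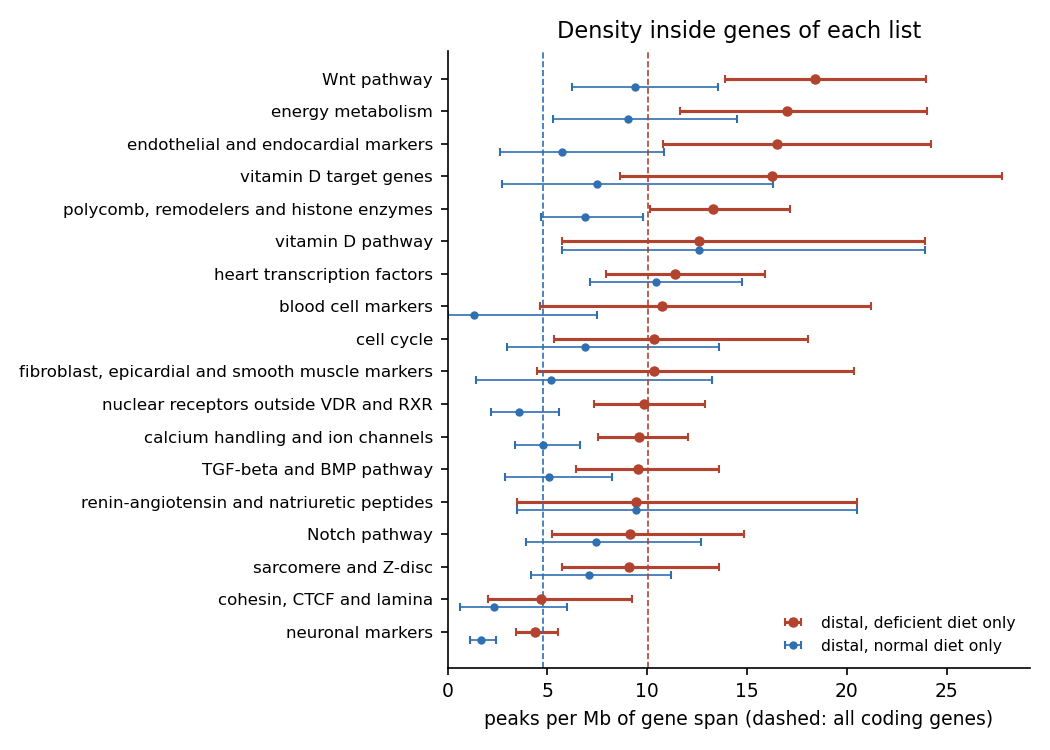
Distal deficient-only (red) and normal-only (blue) peaks per Mb of the gene spans in each of 18 lists, with exact 95% Poisson intervals. Dashed lines mark all protein-coding genes, 10.1 and 4.80 per Mb. The Wnt list is highest for deficient-only peaks at 18.4 and the neuronal list lowest at 4.37.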

How the data were processed

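VDR ChIP-seq peaks of 2 libraries were used, 1 per maternal diet, grouped by the diet in the labels. The build is mm10, per the file headers. MACS2 and SAMtools are named in the submitters' processing notes, with no version or role; the aligner, threshold and control library are not given in the sources used here. The deposited lists give each peak a fold enrichment (a ratio over local background) and the -log10 of its p-value and q-value, per the labels' tools and the narrowPeak layout. The end and score, joined by a point in the normal-diet list, were split, and 1 damaged line was left out.

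Summit pileup and background were recovered by taking the fold as (pileup + 1)/(background + 1) and the p-value as a Poisson tail. Whole-number pileups matched the deposited -log10 p of all peaks with an error of at most 0.000293. Background within 0.0001 of the list's lowest, relative to it, counts as genome-wide. A peak belonged to a bin or gene by its summit. Gene spans and promoter windows came from RefSeq GRCm38.p6. Promoter windows of chromosome 18 were not used here. Shares carry exact (Clopper-Pearson) and rates exact Poisson 95% intervals. No test was run, with 1 library per diet, and the intervals treat peaks as independent. The class and the gene lists were chosen with earlier results of these data known.

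Peaks named were the 6 highest by -log10 q inside and outside spans and the 3 largest pileups at genome-wide background, without chromosome 18. Genes named were the 15 with most peaks and, per list, those with 3 or more (at most 4, otherwise the 2 with most). Some genes this rule names are not reported here. Other genes were named after their values were seen, and so were the printed sequences chosen. Stricter thresholds, other distances, gene tables, bins and list lengths were tried. Scripts ran in Python 3.11.15 with numpy 2.4.6, pandas 2.3.3, scipy 1.17.1 and matplotlib 3.10.9 and were checked on simulated peaks.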

Additional observations from a re-analysis of the deposited data

Results flagged for a closer look

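Regions that meet the distance limits but lie outside the sequences or bins described above also carried peaks, and no control sample sets a level for them. The crowded 100-kb bins held 2209 further distal deficient-diet peaks without a normal-diet peak within 1 kb, in 351 bins, with a median pileup of 22, and 4.12% of them had a background over 2 times the genome-wide value, against 0.757% of the peaks described. On the Y chromosome 5 of 16 deficient-diet peaks had no normal-diet peak within 1 kb. On unplaced sequences the count was 88 of 185.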

How the results depend on the processing

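The number of distal deficient-only peaks (19814), their share inside gene spans (59.0%), median fold enrichment (3.45), median spacing (55274 bp), share on chromosome 11 (6.75%), genes with a peak (5570) and list genes with a peak (220) were recomputed under 9 alternatives chosen in advance and 1 added after seeing the data, the pileup ratio of 4.15 or more. Where no cause is given, the cause was not tested. No paired analysis was possible because a single library stands for either diet, and none could be left out.

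Fewer peaks were kept by construction at a -log10 q of 5 or more (4186 peaks, 1762 genes, 78 list genes, 55.5% inside spans, fold 4.07, spacing 323390 bp, 6.40% on chromosome 11), at a pileup ratio of 4.15 or more (5404 peaks, 2177 genes, 101 list genes, 57.1%, fold 3.92, 235642 bp), with the list cut to the normal-diet length (11851 peaks, 58.3%, fold 3.60, 99612 bp) and at genome-wide background alone (11761 peaks, 145 list genes, fold 3.60, 101798 bp). The share inside spans was 56.7% at 5 kb from normal-diet peaks, 56.1% at 3 kb from gene ends, 51.0% with protein-coding genes alone, 61.7% with crowded bins kept and 53.9% with bins of 6 or more peaks left out, where 5.82% lay on chromosome 11. Spacing under those 5 was 70824 bp, 72570 bp, 51747 bp, 44367 bp and 87727 bp, and 50579 bp when only overlap excluded a peak. Of 180 recomputed counts of genes per list, 131 stayed within 1.5 times. At genome-wide background, 64.3% of these peaks had a ratio under any normal-diet peak at its own, and the part of depth in their absence there was not tested.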

Other observations

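Outside gene spans, the protein-coding genes most often nearest to a distal deficient-only peak were Pcdh7, a protocadherin, with 18 peaks over 3430 kb of surrounding DNA, and Dio3, the enzyme that inactivates thyroid hormone, with 17 over 263 kb. Ajap1 had 15 over 570 kb and Mn1 12 over 314 kb. Normal-only distal peaks in the same surroundings numbered 8, 3, 5 and 4. Hnf4g had 11 deficient-only and 0 normal-only peaks over 1194 kb. These genes were picked after their values were seen.

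The fullest 1-Mb bin, on chromosome 2 from 93000001 to 94000000, held 43 deficient-only and 11 normal-only distal peaks, at the genes Tspan18, Ext2, Prdm11, Cd82 and Alx4 among others. The bin on chromosome 2 from 33000001 to 34000000, with Ralgps1, Mvb12b and Lmx1b, held 41 and 8. Of 2579 bins, 48 held none, and the median was 5.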
